A study of Homo sapiens with 9 samples.

Results

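The miRNA pool of untreated parental HCT116 cells was described from 3 small RNA libraries, out of 9 libraries in the series. Members were chosen by the sample labels alone, as the 3 libraries labelled as HCT116 without resistance to either drug. The other 6 libraries belong to the sublines HCT-FU-c and HCT-Oxa-c, which were derived from HCT116 under rising doses of 5-fluorouracil (5-FU) or oxaliplatin (Oxa), and they were not compared here. HCT116 is an established human colorectal carcinoma line of epithelial origin with deficient mismatch repair. The 3 libraries are labelled biological replicates of this 1 line, so that the spread between them covers separate samples of the line and not separate tumours. Of the 1198 mature miRNAs in the count table, 332 had more than 3 counts in each of the 3 HCT116 libraries and are referred to as detected.

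A mature miRNA is cut from 1 arm of a short RNA hairpin and loaded into an Argonaute protein, which it guides to messenger RNAs that are then repressed. The bases that lead this pairing are the seed, close to the 5′ end, and miRNAs with a common seed form a family with overlapping sets of targets. The arm nearer the 5′ end of the hairpin is named 5p and the other 3p, and most hairpins leave 1 of the arms in the cell while the other is degraded. In colorectal epithelium, miR-21 is a widely studied growth-promoting miRNA, the let-7 family represses HMGA2 and LIN28, and the miR-200 family holds the epithelial state by repressing ZEB1 and ZEB2.

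The mature sequences below are those of the most abundant miRNAs and of further members of their seed families, ordered by seed. They come from RefSeq on GRCh38.p14, read 5′ to 3′, with bases 2 to 8 (the seed) in capitals. They are shown because the families, the first base and most of the near-identical pairs described later can be read from them.
miR-21-5p: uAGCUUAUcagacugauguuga
let-7f-5p: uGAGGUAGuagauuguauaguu
let-7a-5p: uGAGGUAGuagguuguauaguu
let-7g-5p: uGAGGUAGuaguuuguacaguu
let-7i-5p: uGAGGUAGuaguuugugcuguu
miR-98-5p: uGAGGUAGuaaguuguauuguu
let-7d-5p: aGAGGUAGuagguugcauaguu
let-7c-5p: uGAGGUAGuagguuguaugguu
let-7e-5p: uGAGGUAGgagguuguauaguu
miR-100-5p: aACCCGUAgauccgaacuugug
miR-99b-5p: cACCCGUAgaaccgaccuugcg
miR-99a-5p: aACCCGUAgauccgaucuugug
miR-10a-5p: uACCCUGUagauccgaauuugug
miR-7-5p: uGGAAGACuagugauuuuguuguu
miR-222-3p: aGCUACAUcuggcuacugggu
miR-221-3p: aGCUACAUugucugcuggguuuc
miR-92a-3p: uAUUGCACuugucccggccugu
miR-25-3p: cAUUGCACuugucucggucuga
miR-92b-3p: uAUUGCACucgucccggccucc
miR-200c-3p: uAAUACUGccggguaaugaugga
miR-200b-3p: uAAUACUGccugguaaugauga
miR-429: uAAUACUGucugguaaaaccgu
miR-24-3p: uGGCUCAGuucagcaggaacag
miR-183-5p: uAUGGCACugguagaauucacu
miR-182-5p: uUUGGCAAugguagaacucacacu
miR-29a-3p: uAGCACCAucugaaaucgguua
miR-23a-3p: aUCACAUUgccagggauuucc
miR-23b-3p: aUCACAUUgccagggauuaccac
miR-26a-5p: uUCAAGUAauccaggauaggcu
miR-26b-5p: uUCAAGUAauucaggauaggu
miR-30d-5p, among the 20 most abundant miRNAs as well, is named without its sequence.

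Replicates 1, 2 and 3 held 1423526, 1414341 and 856383 counts on mature miRNAs. A level is given below as a percent of these reads, or as reads per 1000000 miRNA reads (RPM). The limit of 3 counts corresponded to 2.11, 2.12 and 3.50 RPM. Intervals and limits cover counting error only, because the libraries were amplified by PCR and the study's library methods name no molecular identifiers. Replicate 3 stood apart from the other libraries. Of 155 miRNAs with a mean of at least 100 counts, 4 differed by more than 2-fold between replicates 1 and 2, against 48 between replicates 1 and 3 and 46 between replicates 2 and 3. Across the 332 detected miRNAs, Pearson's r of log2 RPM was 0.98 between replicates 1 and 2, 0.95 between 1 and 3 and 0.94 between 2 and 3. This is a description over miRNAs, which are not independent replicates. The labels give no batch or date that could be set beside this difference, so the main values are given per library. The mean without replicate 3 is added for the leading miRNAs, the seed families and the HOX and blood lists where it moved by more than 1.5 times. A share of reads is not a share of molecules, since the efficiency with which each miRNA was ligated and amplified was not measured.

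A single miRNA dominated the pool. miR-21-5p, which represses PDCD4, took 55.5% of the reads in replicate 1 (95% Wilson interval 55.4 to 55.6), 57.1% in replicate 2 (57.0 to 57.2) and 46.7% in replicate 3 (46.6 to 46.8). The mean was 53.1% ± 5.61 (SD, n = 3), and the spread between libraries was far wider than the counting interval of any of them. The most abundant 10 miRNAs of each library held 74.1%, 75.6% and 76.6% of its reads. To reach 90% of the reads took 31, 30 and 29 miRNAs, and the effective number of miRNAs, the exponential of the Shannon entropy, was 11.8, 11.1 and 14.6. With miR-21-5p taken out of the table it was 54.5, 55.2 and 42.0.

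The other abundant miRNAs lay an order of magnitude below. miR-100-5p, a hairpin product of the MIR100HG host transcript with mTOR among its known targets, took 4.26%, 3.84% and 4.69% of the reads, and miR-7-5p, a repressor of EGFR, took 3.87%, 3.16% and 3.73%. Both differed little between libraries, with means of 4.26% ± 0.423 and 3.59% ± 0.373 (SD, n = 3). let-7f-5p took 1.32%, 1.90% and 5.96%, and let-7a-5p took 1.26%, 2.25% and 3.47%. Both let-7 miRNAs were highest in replicate 3, and the mean of let-7f-5p was 3.06% with that library and 1.61% without it. miR-222-3p, which represses the cell cycle inhibitor CDKN1B, took 2.10%, 1.82% and 2.94%. miR-10a-5p, encoded within the HOXB genes, took 1.02%, 0.900% and 4.04%, so that its mean of 1.99% became 0.962% without replicate 3.

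**Figure D1:**
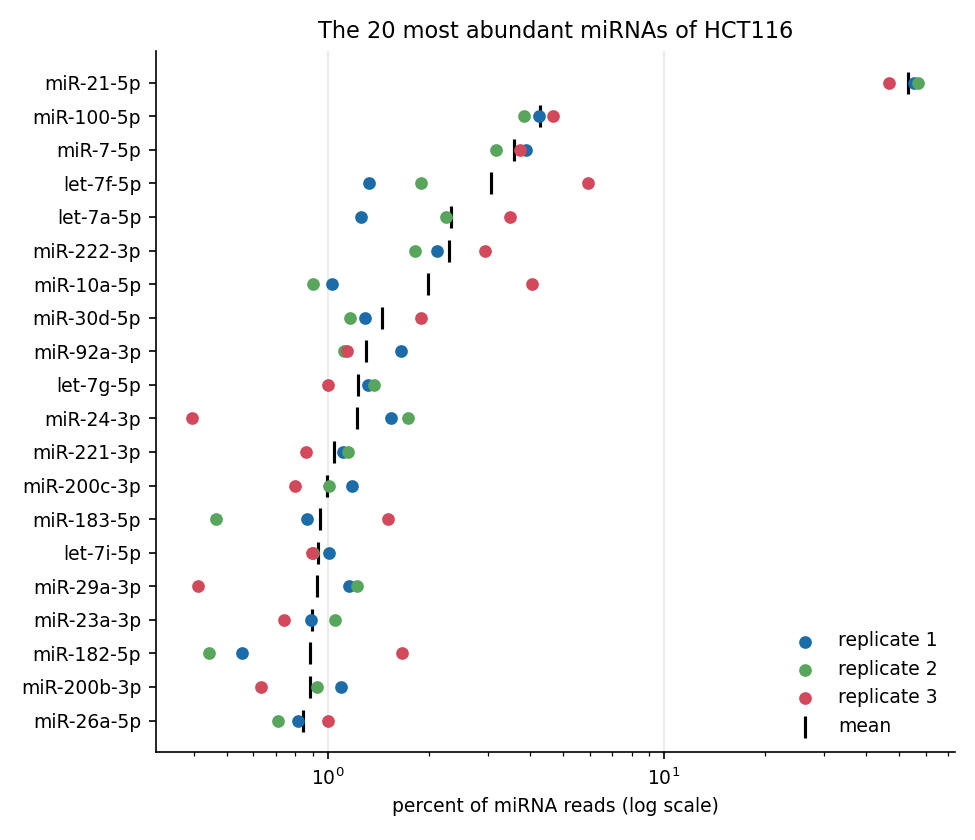
Percent of miRNA reads (log axis) of the 20 most abundant mature miRNAs of HCT116, with a point for each of the 3 libraries and a bar for the mean. miR-21-5p lies between 46.7% and 57.1% and no other miRNA passes 5.96%, while miR-24-3p and miR-29a-3p are lowest, and let-7f-5p and miR-10a-5p highest, in replicate 3.

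The next ranks were close to one another. miR-30d-5p took 1.29%, 1.17% and 1.89% of the reads. miR-92a-3p, made from the miR-17-92 polycistron and from another hairpin on chromosome X, took 1.65%, 1.11% and 1.14%. let-7g-5p took 1.31%, 1.37% and 1.00%. miR-24-3p, which is made from a pair of hairpins in separate clusters, took 1.55%, 1.73% and 0.394%, and replicate 3 was the lowest. miR-221-3p followed with a mean of 1.04% ± 0.154, miR-200c-3p with 0.993% ± 0.189, miR-183-5p with 0.948% ± 0.529, let-7i-5p with 0.935% ± 0.0617 and miR-29a-3p with 0.928% ± 0.449 (SD, n = 3). The last of the 20 were miR-23a-3p at 0.893% ± 0.155, miR-182-5p at 0.885% ± 0.671, miR-200b-3p at 0.884% ± 0.234 and miR-26a-5p at 0.842% ± 0.149. For miR-182-5p the mean without replicate 3 was 0.499%. Only miR-21-5p was separated from its neighbour in rank. For 19 of the 20 pairs of neighbours, from miR-100-5p and miR-7-5p down to miR-26a-5p and miR-103a-3p, the ranges over the 3 libraries overlapped, although miR-100-5p was above miR-7-5p in each library. Of the 20 miRNAs, 14 were among the top 20 of every library, and 7 miRNAs were in the top 10 of every library.

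The tail of the pool was long. The 12 miRNAs with a mean of at least 10000 RPM held 76.9% ± 0.623 of the reads and the 50 between 1000 and 10000 RPM held 19.9% ± 0.610 (SD, n = 3). A further 82 miRNAs between 100 and 1000 RPM held 2.63%, and 155 between 10 and 100 RPM held 0.534%. The remaining 899 listed miRNAs, below 10 RPM, held 0.123%. The spread between libraries grew towards the tail, with a median coefficient of variation of 24.3% in the highest class and 39.3% between 10 and 100 RPM. Of the 1198 listed miRNAs, 266 had no count in any of the 3 libraries, which allows a level of up to 2.11, 2.12 and 3.50 RPM in the respective libraries. Together, the 332 detected miRNAs covered 99.9% of the reads of each library.

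**Figure D2:**
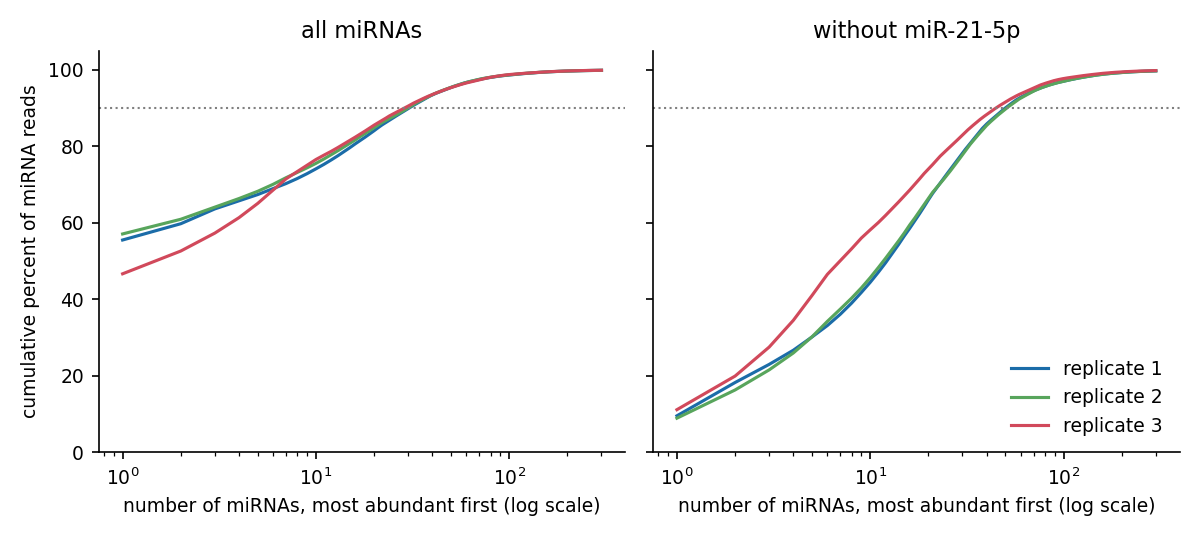
Cumulative percent of miRNA reads against the number of miRNAs, most abundant first (log axis), with 1 line for each of the 3 libraries, for all miRNAs and with miR-21-5p taken out. The dotted line marks 90%, reached with 29 to 31 miRNAs in the left panel and with 45 to 51 in the right one, where replicate 3 climbs fastest.

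Grouped by seed, the pool was narrower still. A sequence was known for 1059 of the 1198 listed miRNAs, which held 95.6% to 96.3% of the reads. Family shares are percents of those reads. The miRNAs missing from that reference are in no family here, among them miR-10b-5p and miR-30d-5p (mean 1.45% of all reads, rank 8). The sizes and ranks of families leave them out, and a family could be larger or rank higher with them. The miRNAs with a known sequence carried 909 seeds, of which 242 were over the limit of 3 counts in every library. The 10 largest families together held 85.0% of the reads by their mean shares, and 16 families reached 90%. The miR-21 seed AGCUUAU took 57.9%, 59.3% and 48.8%. Its other listed member, miR-590-5p, had 4, 2 and 4 counts and was not detected, so that this family was in effect miR-21-5p alone.

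The let-7 seed GAGGUAG ranked next in every library, with 5.53%, 7.25% and 12.8% of the reads and a mean of 8.52% ± 3.78 (SD, n = 3). All 9 listed members were detected. Within the family, let-7f-5p took 24.9%, 27.1% and 48.8% of the reads and let-7a-5p 23.7%, 32.2% and 28.4%. let-7g-5p took 24.8%, 19.7% and 8.21%, and let-7i-5p took 19.0%, 12.9% and 7.35%. The 4 leading members thus shared the family almost evenly in replicate 1, while in replicate 3 let-7f-5p alone held 48.8%. miR-98-5p made up 3.69% to 4.92% of the family and let-7d-5p 1.23% to 2.08%. let-7b-5p, let-7e-5p and let-7c-5p had means below 1% of the family, and let-7c-5p had 18, 39 and 33 counts.

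The ACCCGUA seed took 4.79%, 4.21% and 5.15%, of which miR-100-5p held 92.7% to 95.1% and miR-99b-5p 4.91% to 7.25%. miR-99a-5p, the remaining member, had 17, 6 and 5 counts, although its sequence differs from that of miR-100-5p at 1 base only, A16U (the base of miR-100-5p first, positions counted from the 5′ end). The seed of miR-10a-5p, ACCCUGU, took 1.07%, 0.935% and 4.22%, with miR-10a-5p as its only member in the reference used. The mean of this seed was 2.07% with replicate 3 and 1.00% without it. miR-10b-5p, with 0.0806%, 0.0793% and 0.399% of all miRNA reads, was missing from that reference and is not counted in this share. miR-7-5p was the single listed member of the GGAAGAC seed, at 4.04%, 3.29% and 3.90%. The seed GCUACAU of the paired hairpins miR-221 and miR-222 took 3.35%, 3.08% and 3.97%. Within it, miR-222-3p held 65.5%, 61.3% and 77.3%.

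The seed AUUGCAC of miR-92a-3p took 2.68%, 1.83% and 2.39% of the reads. Of the family, miR-92a-3p held 49.8% to 64.0%, miR-25-3p 28.2% to 35.5% and miR-92b-3p 6.97% to 14.4%, while miR-363-3p had no count. The epithelial seed AAUACUG took 2.57%, 2.24% and 1.66%, and its composition was similar in the 3 libraries. miR-200c-3p held 47.7%, 46.6% and 50.1% of it and miR-200b-3p 44.3%, 43.0% and 39.7%, with miR-429 between 8.05% and 10.4%. The seed UCAAGUA took a mean of 1.44% ± 0.358, with miR-26a-5p at 56.6% to 68.5% of it and miR-26b-5p at the rest. GGCUCAG, carried by miR-24-3p alone, took 1.61%, 1.79% and 0.412%. The seed UCACAUU took 0.997% ± 0.163, with 92.6% to 93.8% from miR-23a-3p and 6.19% to 7.45% from miR-23b-3p. AUGGCAC, carried by miR-183-5p, took 0.989% ± 0.555 (SD, n = 3). A seed with at least 2 detected members was the exception, with 31 such seeds against 209 with 1, and these 31 held 30.9% ± 3.22 of the reads.

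Some of these members could not be told apart with certainty. let-7f-5p and let-7a-5p differ at 1 base, A12G with the base of let-7f-5p first, and let-7a-5p differs at 1 base from let-7c-5p (A19G) and from let-7e-5p (U9G). miR-29a-3p and miR-29c-3p differ by C10U, and miR-23a-3p and miR-23b-3p differ by U19A and in length. The number of mismatches allowed in the mapping is not given in the sources used here, so reads could have moved between such neighbours. In addition, 38 of the detected miRNAs are made from more than 1 hairpin. All listed miRNAs of this kind, detected or not, held 13.8%, 14.2% and 18.03% of the reads, which cannot be assigned to a locus.

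The sequence features of the reads followed miR-21-5p to a large extent. Of the reads with a known sequence, 85.6%, 86.7% and 84.6% came from a miRNA that begins with U, the base favoured in the 5′ pocket of Argonaute proteins. Counting each detected miRNA once, 44.7% of 295 begin with U, and without miR-21-5p the share of reads was 65.8%, 67.4% and 69.8%. A miRNA of 22 bases accounted for 82.7%, 83.9% and 78.1% of the reads and for 57.6% of the detected miRNAs, but for 59.0%, 60.5% and 57.2% of the reads without miR-21-5p. The GC content weighted by reads was 39.7%, 39.4% and 39.5%, against a median of 47.6% over the detected miRNAs. Among detected miRNAs, 54.2% of 131 on the 5p arm and 39.1% of 128 on the 3p arm begin with U.

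Most reads came from 5p arms. Their share was 81.8%, 83.2% and 84.5%, against 17.9%, 16.5% and 15.2% for 3p arms, and the rest came from miRNAs without an arm in their name. Without miR-21-5p the 5p share was 59.0%, 60.7% and 70.8%. In number the arms were nearer, with 153 detected miRNAs on 5p arms and 137 on 3p arms. Of 144 hairpins with both arms listed and at least 100 counts, 82 had a 5p major arm and 62 a 3p major arm. The median share of the major arm was 98.2%. In 107 hairpins it exceeded 90%, in 55 it exceeded 99%, and in 16 it was below 75%. The hairpin of miR-21 was of the first kind, with 99.7%, 99.7% and 99.8% of its reads on the 5p arm, although miR-21-3p still had 2436, 2529 and 654 counts.

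The leading hairpins with a 3p major arm were as one-sided. The 5p arm held 0.0267%, 0.0195% and 0.0318% of the reads of the miR-222 hairpin, and at most 0.112% of those of miR-200c and 0.0475% of those of miR-23a. It held 0.715% to 1.17% for miR-24, 0.152% to 0.955% for miR-92a, 0.0670% to 0.622% for miR-29a and 1.08% to 2.79% for miR-200b. The exception among these 8 hairpins was miR-221, whose 5p arm took 6.90%, 6.88% and 19.3%. The hairpins below, from RefSeq on GRCh38.p14 with both mature arms in capitals, are shown to set 3 of the one-sided hairpins beside 3 in which each arm held a large part of the reads. MIR222 (chrX:45747015-45747124, minus strand) lies in intron 1 of the long noncoding RNA MIR222HG and MIR200C (chr12:6963699-6963766, plus strand) in intron 1 of MIR200CHG. MIR92A1 (chr13:91351314-91351391, plus strand) lies in intron 3 of MIR17HG. miR-92a-3p is also made from MIR92A2, while the 5p reads counted were those of miR-92a-1-5p. The arm share given for miR-92a is therefore not that of MIR92A1 alone. MIR335 (chr7:130496111-130496204, plus strand) lies in intron 2 of MEST, MIR339 (chr7:1022933-1023026, minus strand) in intron 2 of C7orf50, and MIR361 (chrX:85903636-85903707, minus strand) in intron 9 of CHM.
MIR222: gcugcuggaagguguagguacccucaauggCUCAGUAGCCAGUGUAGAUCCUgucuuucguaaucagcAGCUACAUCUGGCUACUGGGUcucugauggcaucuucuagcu
MIR200C: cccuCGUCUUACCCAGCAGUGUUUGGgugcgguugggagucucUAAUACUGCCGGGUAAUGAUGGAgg
MIR92A1: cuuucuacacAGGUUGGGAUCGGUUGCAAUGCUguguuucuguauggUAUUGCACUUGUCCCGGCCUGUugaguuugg
MIR335: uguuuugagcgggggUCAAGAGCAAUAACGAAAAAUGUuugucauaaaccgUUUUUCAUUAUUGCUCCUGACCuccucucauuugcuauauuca
MIR339: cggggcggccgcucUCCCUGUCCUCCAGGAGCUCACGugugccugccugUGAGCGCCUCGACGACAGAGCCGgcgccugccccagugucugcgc
MIR361: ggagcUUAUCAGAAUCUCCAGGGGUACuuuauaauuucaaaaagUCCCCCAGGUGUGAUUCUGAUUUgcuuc

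Among hairpins with at least 1000 counts, the 8 with the most even arms mostly differed between libraries. In miR-335 the 5p arm held 59.9%, 59.0% and 26.7% of the reads. In miR-28 it held 56.9%, 56.3% and 13.5%, and in miR-151a 52.8%, 55.3% and 16.6%. In each of these 3 hairpins both arms were near equal in replicates 1 and 2, and the 3p arm was major in replicate 3. The 5p arm of miR-339 held 39.7%, 65.0% and 75.4%, with 130 reads from the hairpin in replicate 3. In miR-374a it held 88.5%, 90.02% and 48.2%. The arms of miR-361, miR-9 and miR-130b kept the same order in every library, with 5p shares of 63.2%, 73.7% and 52.3%, of 62.5%, 66.0% and 78.4%, and of 74.2%, 80.1% and 66.5%.

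Among 107 hairpins with at least 100 counts in each library, the major arm differed between libraries in 7, namely miR-28, miR-151a, miR-301a, miR-335, miR-339, miR-374a and miR-576. For miR-301a the 5p share was 72.4%, 57.8% and 26.9%, and for miR-576 it was 40.1%, 56.8% and 25.6%, from 407 and 447 reads in all. Over the 144 hairpins the 5p share differed by more than 20 percentage points between replicates 1 and 2 in 2 hairpins, and between replicate 3 and the mean of the others in 14. Of the 7 hairpins named, miR-339 and miR-576 also changed their major arm between replicates 1 and 2, and the other 5 changed it in replicate 3 only.

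A miRNA was counted as clustered if any of its hairpins had a neighbour within 10 kb on the same strand. Clustered miRNAs held 31.6%, 30.8% and 37.7% of the reads, and 71.2% ± 0.462 (SD, n = 3) once miR-21-5p was taken out. These shares are upper bounds for clustered hairpins. The mean of 33.4% became 24.5% with miRNAs of more than 1 hairpin left out. MIR21 itself (chromosome 17, 59841266 to 59841337, plus strand, GRCh38) has no such neighbour and overlaps exon 1 of a VMP1 transcript. Reads of a miRNA with several hairpins are counted in each of its clusters here, so that the shares of clusters overlap. The cluster of MIRLET7A2 and MIR100 on chromosome 11, in intron 2 of MIR100HG, took 5.54%, 6.13% and 8.18%, of which 4.27%, 3.86% and 4.69% of all reads could come from this locus alone. The cluster of MIRLET7A1, MIRLET7F1 and MIRLET7D on chromosome 9 took 2.70%, 4.34% and 9.61%, but its own reads were 0.112%, 0.176% and 0.161%. MIR1179 and MIR7-2 on chromosome 15 took 3.87%, 3.16% and 3.73%, nearly all of it as miR-7-5p. MIR7-1 in an intron of HNRNPK and MIR7-3 also encode miR-7-5p. The reads that the chromosome 15 cluster had of its own were 7.02e-05%, 0% and 0%.

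The cluster of MIR221 and MIR222 on chromosome X took 3.30%, 3.05% and 4.01%, all of it its own. The MIR98 and MIRLET7F2 cluster, inside HUWE1, took 1.52%, 2.19% and 6.56%, with 0.200%, 0.293% and 0.601% of its own. The cluster of MIR24-2, MIR27A and MIR23A on chromosome 19 took 2.84%, 3.30% and 1.44%, with 1.30%, 1.57% and 1.05% of its own. MIRLET7A3 and MIRLET7B took 1.34%, 2.36% and 3.53%, with 0.0732%, 0.0831% and 0.0434% of their own. The cluster of MIR182, MIR96 and MIR183 on chromosome 7, known from the development of sensory organs, took 1.49%, 0.965% and 3.20%, all of it its own. Over the 8 leading clusters, those that can be read without ambiguity were therefore MIR221 with MIR222 and MIR182 with MIR96 and MIR183.

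The cell type label was set against lists of miRNAs known to mark cell types. The epithelial list (the miR-200 family, miR-203 and miR-205) took 2.96%, 2.63% and 2.01% of the reads, and 11 of its 13 listed members were detected. miR-200c-3p led with 11759, 10056 and 7978 RPM, miR-203a-3p had 2225, 1863 and 2230 RPM and miR-141-3p 667, 810 and 287 RPM. miR-205-5p, a marker of stratified epithelium, had 2, 0 and 0 counts. The list enriched in gut epithelium was low, with 455, 484 and 870 RPM in all and 3 of 6 members detected. Its members were miR-375-3p with 315, 332 and 767 RPM, miR-194-5p with 93.4, 112 and 57.2 RPM and miR-192-5p with 44.3, 38.9 and 37.4 RPM, while miR-215-5p had 3, 3 and 6 counts. The general epithelial miRNAs were thus abundant, and those of differentiated gut were scarce.

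Markers of other cell types were low, with a pair of exceptions. The neural list reached 6631, 5963 and 5248 RPM, made up of miR-9-5p with 3370, 3137 and 2990 RPM, miR-9-3p with 2020, 1619 and 822 RPM and miR-128-3p with 1218, 1202 and 1402 RPM. miR-124, the defining miRNA of neurons, had no count from either arm. miR-126-3p, the endothelial marker, had 1014, 908 and 489 RPM. The mesenchymal list had 405, 419 and 654 RPM, with 6 of 8 members detected. It was led by miR-143-3p and miR-145-5p, followed by miR-199b-5p with 38, 35 and 13 counts and miR-199a-3p with 27, 38 and 9 counts, while miR-199a-5p and miR-214-3p had at most 2 counts. The blood list had 21.1, 33.2 and 356 RPM, with 1 of 11 members detected, and its mean share of 0.0137% became 0.00272% without replicate 3. In replicate 3, miR-486-5p reached 236 RPM, against 13.4 and 17.7 RPM in the other libraries. miR-451a had 2, 0 and 86 counts, and miR-122-5p, the hepatocyte marker, had 2, 0 and 45 counts. Of the leukocyte members, miR-142-5p had 0, 10 and 2 counts, and miR-142-3p, miR-223-3p, miR-150-5p and miR-155-5p had at most 4 counts in any library. Elsewhere in the blood list, miR-486-3p had 2, 7 and 2 counts, miR-144-5p 3, 2 and 4 counts and miR-144-3p 0, 0 and 1 counts. miR-486-5p, miR-451a and miR-122-5p were thus higher in the library that stood apart, and their part in its other differences was not tested.

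Among the miRNAs tied to colorectal cancer, those commonly raised in tumours held 61.2%, 62.0% and 54.5% of the reads, with 16 of 19 members detected. Most of this was miR-21-5p. Beside it, miR-221-3p and miR-222-3p, miR-31-5p had 5133, 4871 and 3836 RPM, miR-135b-5p 1789, 1635 and 1096 RPM, miR-96-5p 592, 529 and 284 RPM and miR-224-5p 204, 159 and 141 RPM. miR-135a-5p had 0, 1 and 0 counts, so that the miR-135 reads came from the b copy. The list commonly low in tumours had 382, 387 and 636 RPM, with miR-143-3p at 183, 194 and 490 RPM and miR-145-5p at 143, 146 and 99.3 RPM. miR-137, miR-133a and miR-133b of that list were not analysed here.

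The miR-17-92 polycistron and its paralogues, targets of MYC, held 3.05%, 2.28% and 2.99% of the reads, with 15 of 22 members detected. miR-92a-3p was the largest member, with 16453, 11148 and 11385 RPM. It is made from MIR92A1 in the polycistron and from MIR92A2 in the X-linked paralogue, so its reads cannot be assigned to either locus. The polycistron's own reads were 0.188%, 0.198% and 0.295% of all reads. Its other members were far lower than miR-92a-3p, miR-20a-5p at 804, 887 and 1294 RPM, miR-17-5p at 564, 580 and 883 RPM and miR-19b-3p at 220, 304 and 445 RPM. Of the paralogue on chromosome 7, miR-25-3p had 7259, 5145 and 8107 RPM and miR-93-5p 3515, 3192 and 5974 RPM. The members specific to the X-linked paralogue, miR-106a-5p, miR-18b-5p, miR-20b-5p and miR-363-3p, had at most 6 counts, and none was detected.

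The miRNAs of the HOX clusters took 1.23%, 1.12% and 4.71% of the reads, with a mean of 2.35% that became 1.17% without replicate 3. Apart from miR-10a-5p, the list held miR-10b-5p with 806, 793 and 3987 RPM, miR-196b-5p with 770, 831 and 2135 RPM and miR-196a-5p with 202, 324 and 487 RPM. miR-615-3p went the other way, with 207, 171 and 68.9 RPM. The detected 5p miRNAs of these clusters were thus highest in replicate 3 in each of the 4 cases, and miR-615-3p was lowest there. miR-10a-3p, with 52.7, 62.2 and 65.4 RPM, was highest in replicate 3 as well.

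The variation between libraries was concentrated in replicate 3. Of 155 miRNAs with a mean of at least 100 counts, 59 varied by more than 2-fold between the highest and the lowest library. In 51 of them replicate 3 was the library farthest from the others, higher in 24 and lower in 27, and without replicate 3 the number was 4. miR-339-3p varied most, with 211, 101 and 37.4 RPM, a ratio of 5.66. miR-425-5p followed with 5937, 4732 and 1092 RPM, then miR-10b-5p, miR-335-5p with 842, 711 and 168 RPM, and miR-374a-5p with 3554, 3573 and 738 RPM. miR-22-3p had 1461, 1135 and 305 RPM, and miR-3613-5p 461, 671 and 152 RPM. let-7f-5p, miR-10a-5p and miR-24-3p, all among the most abundant miRNAs, completed the 10 most variable with ratios of 4.50, 4.48 and 4.38. Of these 10, let-7f-5p, miR-10a-5p and miR-10b-5p were highest in replicate 3, and the other 7 were lowest there.

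The miRNAs that differed in replicate 3 were also compared by their sequence. Against the mean of the other libraries, 22 of the 155 miRNAs were more than 2-fold higher in replicate 3 and 25 were more than 2-fold lower. The median GC content was 45.5% in the 19 higher ones with a sequence, 50% in the 18 lower ones and 45.8% in the 103 others. The share beginning with U was 73.7%, 61.1% and 60.2% in the respective sets. These values are descriptions, and no test was run on them. The arms of a hairpin were not displaced in 1 common way in this library. In miR-151a the 5p arm stood at 4790, 4148 and 1916 RPM and the 3p arm at 4283, 3348 and 9652 RPM. In miR-335 the 5p arm, given above, was lowest in replicate 3, and miR-335-3p stood at 564, 494 and 462 RPM.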

How the data were processed

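Small RNA libraries of parental HCT116 (3 biological replicates) were analysed, and the 6 libraries of the sublines were not used here. Total RNA was made into libraries by the authors with the NEXTflex Small RNA-Seq v3 kit and 16 PCR cycles, and sequenced on an Illumina MiSeq. For each mature miRNA the authors deposited unnormalized counts of reads, which were used here. A normalized signal that the authors deposited in the same table, in which the counts of each library are scaled by a constant, was left out. The submitters' processing notes name CASAVA 1.8, Bowtie 1.1.2, DESeq2 and GRCh38.p7 without their roles. The counting tool, the mismatches allowed and the miRNA release are not given in the sources used here.

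Counts were divided by the total per library (856383 to 1423526). Detected means more than 3 counts in every library. Seeds are bases 2 to 8 of the RefSeq sequence (GRCh38.p14), arms come from the names, and hairpin copies of 1 name were added up. Positions, exons and introns come from GENCODE 29 on GRCh38, which matched 1180 of the 1198 miRNAs. Only 1 group is described, so no test was run, and the error is the SD over libraries. Intervals are 95% Wilson intervals. The scripts, in Python 3.11.15 with NumPy 2.4.6, pandas 2.3.3 and SciPy 1.17.1, were tested on simulated counts. Alternatives covered the detection limit, the total, the seed length, the arm and cluster settings and each replicate left out.

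The miRNAs named are the 20 most abundant, the members of the 12 largest seed families with at least 1% of their reads, 8 hairpins each with the most even arms and with the most abundant 3p arm (of those with at least 1000 counts), hairpins whose major arm differed between libraries, the 8 largest clusters, the 10 most variable miRNAs and the members of 18 lists, 1 of which is not reported here. The members and lists were chosen with earlier results of these data known. miR-590-5p, miR-99a-5p, miR-363-3p, let-7b-5p, let-7e-5p and let-7c-5p, below the bound on families, and miR-103a-3p and the arms of miR-21 were named after their values were seen.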

Additional observations from a re-analysis of the deposited data

How the results depend on the processing

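Most shares moved less than their spread (SD) between libraries, but several counts moved more than theirs. The 332 detected miRNAs (SD 38.2) became 477 with at least 1 count and 250 with at least 10 counts in every library. Their number was 404 without replicate 3, against 343 and 344 without replicates 1 and 2. Seed families reaching 90% of the reads rose from 16 (SD 0.577) to 23 without miR-21-5p. Hairpins with a 5p major arm numbered 82 (SD 3.06), and 110 with at least 10 counts. Without miR-21-5p, the 10 most abundant miRNAs held 47.96% and the 10 largest seed families 68.4% of the reads, 51 miRNAs reached 90%, the effective number was 50.6, the 5p share 63.5%, the clustered share 71.2% and the share beginning with U 67.7%. Counting each detected miRNA once, 44.7% began with U. With more than 3 counts asked in any library, 537 miRNAs were detected. Asking for at least 1000 counts left 52 hairpins with a 5p and 34 with a 3p major arm and a median major arm of 98.9%. At least 10 counts gave 102 with a 3p major arm and a median of 96.5%. Without miRNAs of more than 1 hairpin the median was 97.9% and the clustered share 24.5%, and within 3 kb the clustered share was 23.1%. Leaving out each replicate gave medians of 98.1% to 98.3%. The number of miRNAs varying over 2-fold was 116 for a mean of at least 20 counts, 24 for at least 1000, and 4 to 48 with each replicate left out, 4 being the value without replicate 3. Among the 50 lists, miRNAs and families, 16 of 218 alternative values moved, all 16 with miR-21-5p left out of the total. The spread used for this includes replicate 3, so it cannot show what that library sets. Without replicate 3, the mean share was 1.61% for let-7f-5p, 0.962% for miR-10a-5p, 0.499% for miR-182-5p, 1.00% for the seed family of miR-10a-5p, 1.17% for the HOX list and 0.00272% for the blood list. No paired analysis was possible because no test between groups was made. The lowest depth, 856383 counts, limits the detection of miRNAs below 3.50 RPM, and 3 libraries of 1 line limit the precision of every mean.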

Other observations

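Imprinted miRNAs were sparse in these cells. Of 60 listed mature miRNAs from the imprinted domain of chromosome 14 (DLK1-DIO3), which is active in embryonic and neural tissue, 6 were detected and 40 were at or under 3 counts in every library. The list reached 113, 117 and 211 RPM in all. miR-369-3p led with 15.5, 9.19 and 61.9 RPM and miR-379-5p followed with 12.6, 9.90 and 40.9 RPM, and miR-127-3p had no count. miR-337, miR-665, miR-431, miR-433, miR-300, miR-544a and miR-668 of this domain were not analysed here. miRNAs made without Drosha or Dicer, or from short introns, held 1654, 1628 and 2247 RPM, with 6 of 11 members detected. Most of this was miR-320a-3p, with 1281, 1284 and 1881 RPM, before miR-484 with 242, 240 and 102 RPM and miR-877-5p with 35.8, 26.9 and 49.0 RPM.

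A list of 13 hairpins chosen from those the study names, without the miR-17-92 members, held 3.55%, 3.97% and 2.19% of the reads of the parental line. miR-27a-3p had 3838, 4873 and 2899 RPM, miR-27b-3p 3167, 2832 and 2784 RPM, miR-30a-5p 1609, 1550 and 1121 RPM and miR-181a-5p 755, 806 and 1220 RPM. miR-452-5p had 42.1, 36.8 and 22.2 RPM, and miR-195-5p 24.6, 24.0 and 8.17 RPM. Muscle miRNAs reached 10.5, 17.7 and 15.2 RPM, nearly all of it miR-499a-5p in replicates 1 and 2. Of the pluripotency list, miR-302b-3p had 0, 3 and 1 counts and miR-372-3p 0, 0 and 2 counts, and the other members were not analysed here.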
